A study of Mus musculus with 10 samples.

Results

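The chaperone genes described here encode the large protein-folding machines of the cell: the HSP70 and HSP110 families, HSP90, the J-domain (DNAJ) co-chaperones, the mitochondrial chaperonin and the cytosolic chaperonin CCT. They were chosen with earlier results of these data known. The rule used the symbol, and took protein-coding genes named Hspa, Hspd1, Hspe1, Hsph1, Hsp90, Dnaja, Dnajb, Dnajc or Cct with a number. This gave 73 genes of the 57185 with values in the count table. Of these, 64 had more than 10 counts in at least 6 of the 10 mice and were tested, among 13452 genes tested in all. None of the 64 passed an adjusted p of 0.05 between the genotypes in the quasi-likelihood test of edgeR. The clearest difference was in Cct8, a subunit of CCT, which was lower in all 5 mice of one genotype than in any of the other but missed that threshold. The inducible HSP70 genes Hspa1a and Hspa1b varied most, and they did so from mouse to mouse within both genotypes.

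RNA came from the apical parts of the ventricles of 10 male mice, 5 of each genotype, as 1 polyA library per mouse. MLPKO mice were MLP-/- with floxed Rrad (RAD fl/fl) and no Cre. MLP, the muscle LIM protein, is the product of Csrp3, and mice without it develop dilated cardiomyopathy. cRADΔ/Δ-MLPKO mice, labelled MLPKO-cRADKO or double knockout, carried in addition the MYH6-MerCreMer transgene, in which the alpha myosin heavy chain promoter confines a tamoxifen-dependent Cre to cardiomyocytes. Its target, Rrad, encodes RAD, an inhibitor of the L-type calcium channel. All mice of both genotypes received 1 intraperitoneal dose of tamoxifen, 100 mg per kg, at 10 weeks of age and were sampled 1 month later, and the labels give their age as 16 weeks. No group carried the Cre transgene with an intact Rrad, so the effects of the transgene and of Rrad loss cannot be told apart. In the tissue as a whole, fewer cells of a type and less RNA per cell cannot be told apart either.

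Each library held between 33457406 and 49965101 counts. CPM are counts per 1000000 counts of a library after scaling by TMM, a normalization for library size and composition. Rrad itself was 223 ± 66.2 CPM in MLPKO and 171 ± 29.9 CPM in cRADΔ/Δ-MLPKO (mean ± SD, n = 5 each), with overlap and an edgeR adjusted p of 0.290, and the count covers the whole gene in all cell types. Csrp3, knocked out in both groups, was still counted, with means of 1776 CPM in MLPKO and 840.2 CPM in cRADΔ/Δ-MLPKO (edgeR adjusted p = 0.0667). Defining markers of cardiomyocytes were at high levels in every mouse: the 8 listed summed to between 53200 and 78120 CPM. Of the 3 atrial markers, Sln was at 0.359 CPM or less, while Myl4 and Myl7 were counted in every mouse and were highest in cRADΔ/Δ-MLPKO 1, with 19.6 and 4.55 CPM. Of the 6 skeletal muscle markers, Myh1, Myh2, Myh4 and Pvalb were at or near 0 and Tnnt3 at 1.43 CPM or less, while Ckm, which the heart also expresses, had 393 to 675 CPM. The summed cardiomyocyte markers ranged from 67140 to 78120 CPM in MLPKO and from 53200 to 64440 CPM in cRADΔ/Δ-MLPKO. Of the 8, edgeR called 1 lower, Tnnt2, and DESeq2 called Tnnt2 and Myh6 lower. Of all genes tested, 1.8% were called lower by edgeR and 5.84% by DESeq2. The 6 endothelial markers summed to 914 to 1041 CPM in MLPKO and 1117 to 1269 CPM in cRADΔ/Δ-MLPKO, and the 6 macrophage markers to 92.1 to 138 and 117 to 211 CPM. edgeR called none of these 12, and DESeq2 called 6 higher (Fabp4, Kdr, Tie1, Adgre1, Cd163 and Csf1r), beside 3.81% of all genes. The 6 smooth muscle and pericyte markers summed to 492.5 to 675 CPM and 651 to 870 CPM, with Acta2 and Rgs5 called higher by edgeR, as was Dpt of the 6 fibroblast markers, whose sums overlapped. Of the smooth muscle and pericyte list, Cspg4 went the other way, with means of 60.0 CPM in MLPKO and 36.0 CPM in cRADΔ/Δ-MLPKO (edgeR adjusted p = 0.151). Means were close for Myh11 (50.9 and 51.1 CPM) and Pdgfrb (77.9 and 77.2 CPM), and Tagln was at 0.347 CPM or less. The part of these cell type differences in the chaperone values was not tested. MLPKO 2 was the highest of the 10 mice for 23 of the 64 chaperone genes (35.9%) and for 19.8% of all genes tested.

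HSP70 proteins hold unfolded segments of other proteins in cycles of ATP hydrolysis. J-domain proteins bring them their clients and start that hydrolysis, and HSP110 proteins release the nucleotide and so restart the cycle. HSP90 takes over clients that are nearly folded, such as kinases, steroid receptors and, in muscle, myosin. The chaperonins are closed chambers. HSP60, with its lid HSP10, works in mitochondria, and CCT, a double ring of related subunits, folds actin and tubulin in the cytosol. Some members are made constantly and others are made on heat or proteotoxic stress, when heat shock factors bind heat shock elements in their promoters. Those of the endoplasmic reticulum are induced by the unfolded protein response through a different element.

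The sequences before the start sites of Hspa1a and Hspa1b are shown because the counts of this inducible pair were high in the same mice. Both lie on the minus strand of chromosome 17 of GRCm39, with start sites 12918 bases apart (Hspa1a at 35188166 to 35191132 and Hspa1b at 35175412 to 35178214). The 250 bases before each start site, chr17:35191133-35191382 for Hspa1a and chr17:35178215-35178464 for Hspa1b, hold no annotated exon. They are given 5′ to 3′ on the minus strand, and capitals mark the bases that differ between the pair.
Hspa1a: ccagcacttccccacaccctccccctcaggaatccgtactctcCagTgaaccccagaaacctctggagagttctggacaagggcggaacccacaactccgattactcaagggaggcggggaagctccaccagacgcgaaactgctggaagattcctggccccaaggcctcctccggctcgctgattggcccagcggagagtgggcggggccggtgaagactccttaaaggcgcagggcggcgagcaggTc
Hspa1b: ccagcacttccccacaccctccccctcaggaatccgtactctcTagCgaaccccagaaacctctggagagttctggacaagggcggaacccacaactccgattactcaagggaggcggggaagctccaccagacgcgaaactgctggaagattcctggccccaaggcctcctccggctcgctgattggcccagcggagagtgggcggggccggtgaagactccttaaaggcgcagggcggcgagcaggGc
Counted from 1 at the 5′ end, the windows differ at 3 positions (C44T, T47C and T249G, from Hspa1a to Hspa1b) and are identical at the other 247, or 98.8%. The transcripts also share sequence. Of all stretches of 100 bases in the canonical transcript, 48.6% for Hspa1a and 49.9% for Hspa1b occur also in the other gene or in Hspa1l. How the authors' counting treated reads shared by several genes is not given in the sources used here, so the division of reads between the pair is uncertain and their sum is given beside them.

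A strict heat shock element, GAANNTTCNNGAA or TTCNNGAANNTTC on either strand, was in the 250 bases before 76 of 21757 protein-coding start sites (0.349%). Among the 73 chaperone genes it was before 2, Hspd1 and Hspe1, the genes of HSP60 and HSP10. These genes lie head to head on chromosome 1 and share it (chr1:55127212-55127241, 30 bases of GRCm39, each on its own gene's strand, with overlapping matches in capitals).
Hspd1: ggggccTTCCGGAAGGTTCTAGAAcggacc
Hspe1: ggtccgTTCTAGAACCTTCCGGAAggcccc
The element of the unfolded protein response, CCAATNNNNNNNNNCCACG or its reverse complement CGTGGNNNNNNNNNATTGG, was before 25 of the 21757 start sites (0.115%), and before 3 of the 73 chaperone genes. All 3 serve the endoplasmic reticulum: Hspa5 (chr2:34662032-34662061, plus strand), Hsp90b1 (chr10:86541391-86541420, minus strand) and Dnajc3 (chr14:119175234-119175263, plus strand). Hsp90b1 has a second match further from its start site, and capitals mark the match.
Hspa5: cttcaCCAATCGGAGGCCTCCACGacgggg
Hsp90b1: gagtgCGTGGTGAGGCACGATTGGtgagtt
Dnajc3: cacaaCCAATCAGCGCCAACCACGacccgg
A match in these windows is a description of the letters only. The strict heat shock element was not found before the inducible Hspa1a and Hspa1b. Looser forms of it were not searched, so a window without a match may still hold an element.

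The chaperone genes together took between 0.739% and 0.972% of all counts in a mouse. By CPM per kilobase of exon (FPKM, over the union of all exons of a gene), the highest mean level over the 10 mice was that of Hsp90ab1, the constitutive cytosolic HSP90, with 287 FPKM. It was followed by Hspa9, the mitochondrial HSP70, with 146 FPKM, and Hspa8, the constitutive cytosolic HSP70, with 133 FPKM. Hspa5, the HSP70 of the endoplasmic reticulum also named BiP, had 95.02 FPKM and Hspd1 had 90.3 FPKM. The highest level of a J-domain protein was 72.2 FPKM for Dnaja2, a partner of Hspa8. Next came Hspe1 with 56.0, Hsp90aa1 with 51.9, Cct8 with 36.7 and Hsp90b1, the HSP90 of the endoplasmic reticulum, with 31.5 FPKM.

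This order depends on the length used. With the canonical transcript in place of all exons, a choice made after the data had been seen, Hsp90ab1 stayed first with 573.7 per kilobase and Hspa8 moved to the second place with 481.8, ahead of Hspa9 with 220.9. Hspd1 had 139.1 and Hspe1 128.9, Dnajb2 with 82.07 stood just above Dnaja2 with 81.58, and Cct8 left the 10 highest. At the other end of the FPKM scale, the stress-inducible Hspa1a and Hspa1b stood at 2.38 and 2.48, far under the constitutive Hspa8.

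**Figure D1:**
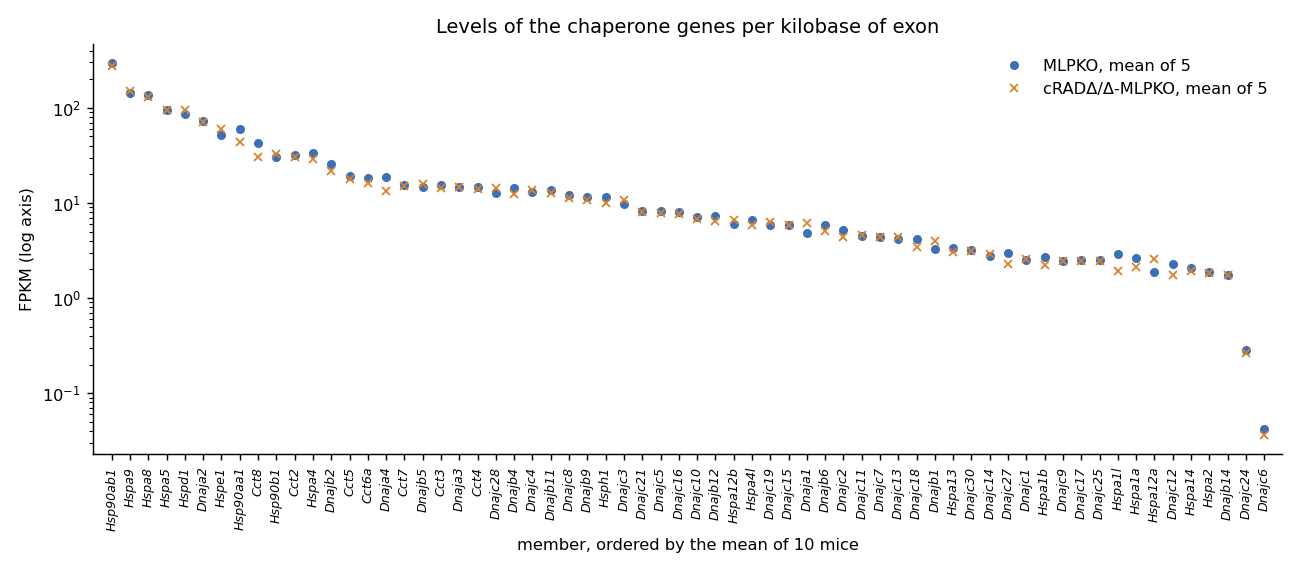
Mean level of each of the 64 tested chaperone genes in CPM per kilobase of exon (FPKM, log axis), ordered from left to right by the mean of the 10 mice. Circles are the MLPKO mean and crosses the cRADΔ/Δ-MLPKO mean of 5 mice, and the pair of marks lies close together for most genes, from Hsp90ab1 at 287 FPKM to Dnajc6 at 0.0392 FPKM.

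The 9 chaperone genes that were not tested had next to no counts in these hearts. They are Cct6b and Cct8l1, relatives of CCT subunits, and Dnajb3, Dnajb7, Dnajb8, Dnajb13, Dnajc5b, Dnajc5g and Dnajc22. Dnajb8 and Dnajc5g had 0 counts in every mouse, where a count of 0 allows up to 3 counts per library. The highest level of the 9 was 0.523 CPM, for Cct6b in cRADΔ/Δ-MLPKO 2.

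The question of the comparison was whether removing RAD from the cardiomyocytes of failing MLPKO hearts went with another level of these genes. The log2 fold changes are given for cRADΔ/Δ-MLPKO over MLPKO, so that negative values are lower counts in cRADΔ/Δ-MLPKO. At an edgeR adjusted p under 0.05, 0 of 64 chaperone genes were lower, where 1.8% of all genes tested were, and 0 were higher, where 0.944% were. The smallest edgeR adjusted p was 0.0661, for both Cct8 and Dnajc27. At an unadjusted p under 0.05 the counts were 12 lower (18.8%, against 11.5% of all genes) and 1 higher (1.56%, against 10.1%).

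DESeq2, which the authors had used, called 5 of the 64 lower (7.81%, against 5.84% of all genes) and 0 higher (against 3.81%). limma-voom called 0, with 12 lower and 2 higher at an unadjusted p under 0.05. The 5 of DESeq2 are Cct8, Dnajb2, Dnajb12, Dnajc27 and Hspa4l. The same genes had edgeR adjusted p-values from 0.0661 to 0.0996, so the call depends on the tool. The values of the 5 mice did not overlap between the genotypes for 6 genes, all lower in cRADΔ/Δ-MLPKO (9.38%, against 3.97% of all genes), and for 0 in the other direction (against 2.64%).

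Over the 64 genes the median log2 fold change was -0.068, with 43 values below 0 and 21 above, beside a median of 0.011 over all genes tested, of which 47.9% were below 0. For 47 of the 64 (73.4%) the 95% interval of the log2 fold change lay within 0.5 of 0, as it did for 61.6% of all genes. For the other 17 a larger difference in at least one direction was within the interval. The values were narrow for the CCT subunits other than Cct8 and for most DNAJC genes, and wide for the inducible HSP70 genes.

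**Figure D2:**
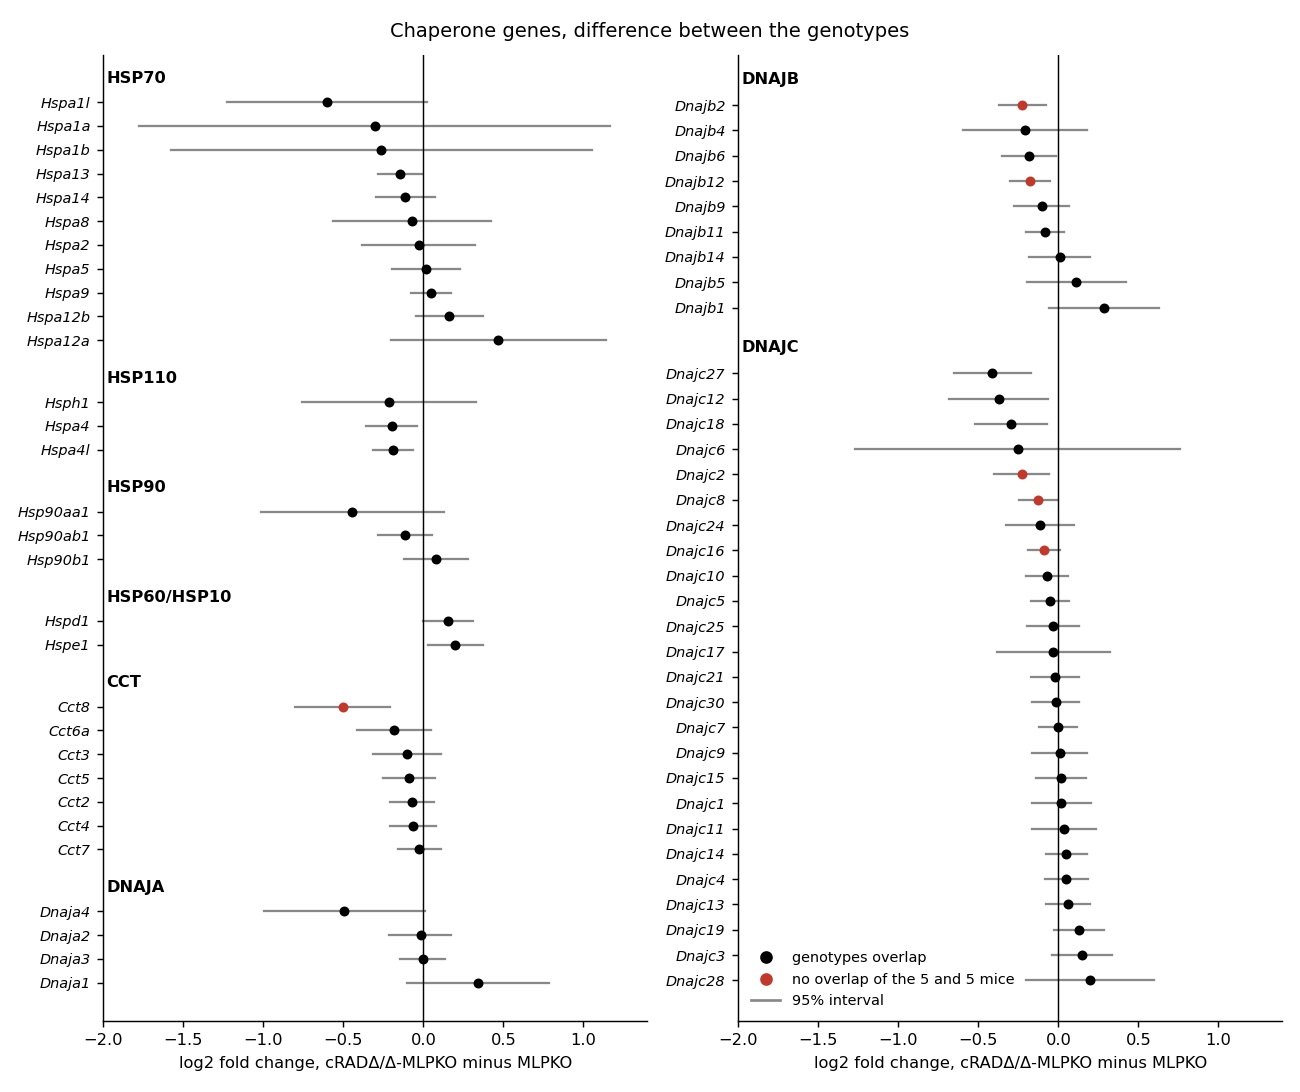
Log2 fold change of cRADΔ/Δ-MLPKO over MLPKO for the 64 tested chaperone genes by family, with the 95% interval of the edgeR fit as a grey line (n = 5 mice per genotype). Red points mark the 6 genes whose mice did not overlap between the genotypes, all to the left of 0, and the widest intervals belong to Hspa1a and Hspa1b.

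The symbol rule takes in 7 subunits of CCT that were tested. All 7 had log2 fold changes below 0, from -0.50 for Cct8 to -0.025 for Cct7, and none was called by edgeR. Cct8, the theta subunit (chromosome 16, 87279168 to 87292801), had 179, 256, 152, 146 and 203 CPM in MLPKO mice 1 to 5 and 144, 140, 125, 129 and 122 CPM in cRADΔ/Δ-MLPKO mice 1 to 5. Every cRADΔ/Δ-MLPKO mouse was thus below every MLPKO mouse, by a small margin at the nearest pair, and the MLPKO mice were spread more widely. The group means were 187 ± 44.8 CPM (SD, n = 5) and 132 ± 9.55 CPM (SD, n = 5), the second being 70.5% of the first. The log2 fold change was -0.50 (standard error, SE, 0.14, 95% interval -0.80 to -0.21), with an edgeR adjusted p of 0.0661 and a DESeq2 adjusted p of 0.0086. Without MLPKO 2, the highest mouse, it was -0.37 (edgeR adjusted p = 0.0663), and without MLPKO 4, the lowest of its group, it was -0.58 (edgeR adjusted p = 0.0294). Genes on the other strand overlap 20.7% of the exon bases of Cct8, and whether the counting used strand is not given in the sources used here.

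The other subunits kept closer together. Cct2, Cct3, Cct4, Cct5, Cct6a and Cct7 had log2 fold changes of -0.069, -0.10, -0.067, -0.089, -0.18 and -0.025, with edgeR adjusted p-values from 0.341 for Cct6a to 0.856 for Cct7. Their 95% intervals together reached from -0.41 to 0.11. In single mice the mean CPM of these 6 ranged from 101 to 131 in MLPKO and from 100.5 to 109.8 in cRADΔ/Δ-MLPKO.

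Within each library, Cct8 can be set against the other subunits of the same complex. Cct8 over the mean of those 6 was 1.54, 1.95, 1.48, 1.44 and 1.75 in MLPKO mice 1 to 5, and 1.31, 1.29, 1.17, 1.20 and 1.22 in cRADΔ/Δ-MLPKO mice 1 to 5. The ratio did not overlap between the genotypes, with means of 1.63 ± 0.21 and 1.24 ± 0.062 (SD, n = 5 each). It was chosen after the values of Cct8 had been seen, so it is given without a test. The alpha subunit is the product of Tcp1, whose symbol does not match the rule. It had 131 CPM in MLPKO and 118 CPM in cRADΔ/Δ-MLPKO on average, with a log2 fold change of -0.15 (edgeR adjusted p = 0.139). The genotypes were without overlap only narrowly. The lowest MLPKO mouse had 121.0 CPM and the highest cRADΔ/Δ-MLPKO mouse 120.9 CPM. Of all genes tested, 3.97% were lower without overlap.

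**Figure D3:**
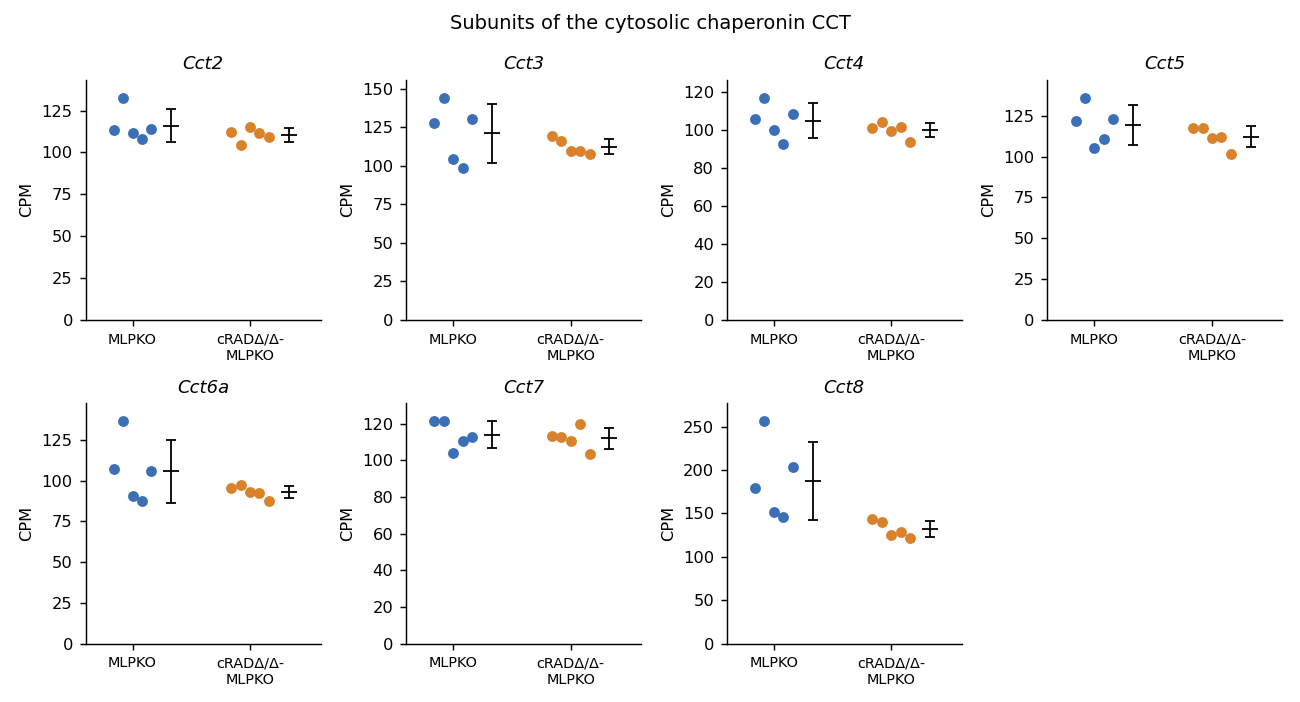
CPM of the 7 CCT subunit genes in each mouse (points; axes start at 0), with the mean and SD of the 5 mice of each genotype beside them. Cct8 ranged from 146 to 256 CPM in MLPKO and from 122 to 144 CPM in cRADΔ/Δ-MLPKO without overlap, while the other 6 subunits overlapped.

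The remaining 5 genes without overlap are all J-domain proteins, with small differences. Dnajb2, also HSJ1, brings ubiquitinated clients to the proteasome. It had 115, 126, 106, 99.8 and 108 CPM in MLPKO and 95.3, 99.5, 98.5, 91.1 and 89.4 CPM in cRADΔ/Δ-MLPKO, so that the nearest mice of the groups differed by under 1 CPM. Its log2 fold change came to -0.23 (SE 0.068, adjusted p = 0.0850 in edgeR, DESeq2 adjusted p = 0.0259).

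Dnajb12 sits in the membrane of the endoplasmic reticulum and takes part in the disposal of misfolded membrane proteins. It had 35.9, 39.2, 37.1, 35.3 and 41.0 CPM in MLPKO and 32.9, 34.0, 33.4, 34.6 and 31.7 CPM in cRADΔ/Δ-MLPKO. All cRADΔ/Δ-MLPKO mice were lower, with a log2 fold change of -0.18 (SE 0.056, adjusted p = 0.0996 in edgeR, DESeq2 adjusted p = 0.0491). Genes of the other strand overlap 24.1% of its exon bases.

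Dnajc2 is the J-domain partner of HSP70 at the ribosome, where new chains emerge. It had 25.3, 29.5, 26.8, 26.6 and 27.2 CPM in MLPKO and 23.9, 21.7, 25.1, 19.6 and 25.2 CPM in cRADΔ/Δ-MLPKO. The highest cRADΔ/Δ-MLPKO mouse lay just under the lowest MLPKO mouse, and the log2 fold change was -0.23 (SE 0.078, adjusted p = 0.116 in edgeR). Dnajc8, a J-domain protein of the nucleus linked to splicing, ranged from 59.3 to 66.7 CPM in MLPKO and from 54.5 to 58.8 CPM in cRADΔ/Δ-MLPKO (log2 fold change -0.13, edgeR adjusted p = 0.197). For Dnajc16, of the endoplasmic reticulum, the ranges were 51.3 to 54.2 CPM and 47.5 to 50.9 CPM (log2 fold change -0.089, edgeR adjusted p = 0.292). In all 6 genes without overlap, Cct8 included, the gap between the genotypes was narrower than the spread within either.

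**Figure D4:**
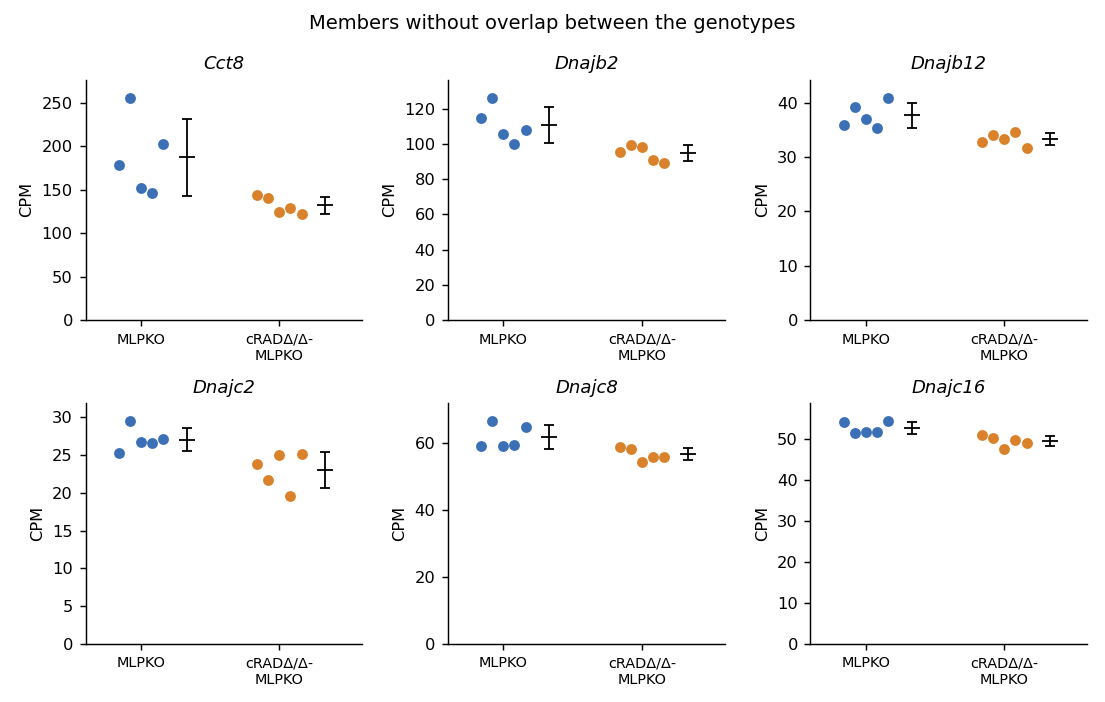
CPM per mouse of the 6 chaperone genes without overlap between the genotypes (points; axes start at 0), with the mean and SD of 5 mice beside them. All 6 were lower in cRADΔ/Δ-MLPKO, with the widest separation in Cct8 (means of 187 and 132 CPM) and gaps of under 1 CPM between the nearest mice in Dnajb2, Dnajb12, Dnajc2, Dnajc8 and Dnajc16.

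Dnajc27, a small GTPase with a J domain, had the other smallest adjusted p. Its values were 31.0, 35.2, 31.3, 24.4 and 37.7 CPM in MLPKO and 26.6, 26.6, 22.9, 21.0 and 22.9 CPM in cRADΔ/Δ-MLPKO. Only MLPKO 4 reached into the range of the other genotype. Its log2 fold change came to -0.41 (SE 0.11, adjusted p = 0.0661 in edgeR, DESeq2 adjusted p = 0.0134), and without MLPKO 4 the edgeR adjusted p was 0.0175.

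The cytosolic HSP70 genes showed the widest spread. Hspa1a had 1.94, 18.6, 3.00, 1.89 and 13.7 CPM in MLPKO mice 1 to 5 and 3.65, 14.8, 3.63, 5.77 and 3.51 CPM in cRADΔ/Δ-MLPKO mice 1 to 5. Hspa1b had 2.06, 17.9, 3.22, 3.28 and 11.6 CPM in MLPKO and 3.80, 14.6, 3.93, 5.28 and 3.71 CPM in cRADΔ/Δ-MLPKO. MLPKO 2, MLPKO 5 and cRADΔ/Δ-MLPKO 2 were high and the other 7 mice low, in both genes.

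Summed over the pair, these 3 mice had 36.5, 25.4 and 29.4 CPM, and the other 7 ranged from 4.00 to 11.1 CPM. The within-group SD on the log2 scale was 1.18 for Hspa1a and 1.03 for Hspa1b, the highest of all 64, where the median was 0.126 over the members and 0.169 over all genes. The log2 fold changes between the genotypes were -0.31 (95% interval -1.78 to 1.17) and -0.26 (95% interval -1.58 to 1.05), with edgeR adjusted p-values of 0.838 and 0.845. A change of 2-fold in either direction was within both intervals, so at this spread such a difference of the inducible pair was not detectable. Without MLPKO 2 the signs turned, to 0.29 and 0.32 on the log2 scale.

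The same 3 mice were the highest for 6 of the 64 chaperone genes (9.38%), and for 1.9% of all genes tested. The 3 mice were picked from the values of Hspa1a and Hspa1b, which are part of the 6, so the 2 shares are a description only. Beside Hspa1a and Hspa1b the 6 genes were Hspa1l, Hspa8, Dnajb4 and Dnajb9. Hspa8 had 949, 1829, 887, 773 and 1472 CPM in MLPKO and 948, 1506, 1030, 1137 and 1005 CPM in cRADΔ/Δ-MLPKO, with a log2 fold change of -0.071 (SE 0.23, adjusted p = 0.893 in edgeR). Of the stretches of 100 bases in its transcript, 62.8% occur also in other genes, so how its reads were counted is uncertain.

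Hspa1l, a relative expressed mainly in testis that lies beside the pair, had 4.97, 11.7, 5.29, 4.08 and 10.2 CPM in MLPKO and 4.73, 6.12, 5.30, 4.01 and 3.69 CPM in cRADΔ/Δ-MLPKO. Its log2 fold change of -0.60 was the lowest of the 64 (SE 0.29, adjusted p = 0.251 in edgeR). The difference came with MLPKO 2 and MLPKO 5, and without MLPKO 2 it was -0.37. Genes of the other strand overlap 71.5% of its exon bases.

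Dnajb4, a J-domain partner of cytosolic HSP70 that is prominent in muscle, had 122, 181, 174, 148 and 244 CPM in MLPKO and 131, 206, 135, 142 and 138 CPM in cRADΔ/Δ-MLPKO. cRADΔ/Δ-MLPKO 2 stood alone in its group, and it had a log2 fold change of -0.21 (edgeR adjusted p = 0.538). Dnajb9, an inducible protein of the endoplasmic reticulum, moved over a narrow range of 37.2 to 52.6 CPM, with a log2 fold change of -0.10 (edgeR adjusted p = 0.467).

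Genes that respond within minutes to handling or ischaemia were compared with this pattern mouse by mouse. Atf3 was 17.6, 18.8 and 18.1 CPM in MLPKO 2, MLPKO 5 and cRADΔ/Δ-MLPKO 2, and 14.7 CPM in MLPKO 3, while the other 6 mice had 3.28 to 8.51 CPM. Egr1 was 37.3, 22.0 and 17.7 CPM in the same 3 mice and 10.1 to 21.2 CPM in the other 7. Fos was 8.37, 3.79 and 2.40 CPM in them and 0.790 to 2.63 CPM in the others. Jun was 78.6, 49.1 and 93.8 CPM in them and 47.4 to 73.6 CPM in the other 7, so that MLPKO 2 and cRADΔ/Δ-MLPKO 2 were the highest and MLPKO 5 the second lowest of the 10. None of Atf3, Egr1, Fos and Jun was called between the genotypes by edgeR, and the part of handling in the chaperone values was not tested.

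In other heat-responsive members the 3 highest mice were not this same set. Hsp90aa1, the inducible cytosolic HSP90, had 340, 459, 163, 151 and 264 CPM in MLPKO and 195, 237, 210, 191 and 179 CPM in cRADΔ/Δ-MLPKO. The MLPKO mice lay on both sides of the cRADΔ/Δ-MLPKO range. Its log2 fold change came to -0.44 (SE 0.26, adjusted p = 0.354 in edgeR), and it was -0.18 without MLPKO 2. Of its stretches of 100 bases, 44.1% occur also in other genes.

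Hsph1, the inducible HSP110, had 209, 172, 74.7, 86.1 and 104 CPM in MLPKO and 115, 124, 118, 103 and 96.9 CPM in cRADΔ/Δ-MLPKO (log2 fold change -0.21, edgeR adjusted p = 0.669). Dnaja4, a J-domain partner of HSP70 in the cytosol, had 138, 235, 88.3, 88.0 and 146 CPM in MLPKO and 95.4, 114, 91.8, 89.9 and 101 CPM in cRADΔ/Δ-MLPKO (log2 fold change -0.49, edgeR adjusted p = 0.240, and -0.22 on the log2 scale without MLPKO 2). In Hsp90aa1, Hsph1 and Dnaja4 alike, the 2 lowest mice were MLPKO 3 and MLPKO 4, and MLPKO 1 and MLPKO 2 were among the 3 highest. MLPKO 5 was also among the 3 highest for Hsp90aa1 and Dnaja4, and cRADΔ/Δ-MLPKO 2 was the highest of its genotype for all 3 genes. The MLPKO mice thus held both ends of the range of each of these genes.

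Dnaja1, Dnajb1 and Dnajb5, also J-domain partners of cytosolic HSP70, peaked in cRADΔ/Δ-MLPKO 2. That mouse was among the 3 that were high for Hspa1a and Hspa1b. Dnaja1 had 37.2, 52.3, 43.4, 36.5 and 54.6 CPM in MLPKO and 43.2, 91.9, 49.0, 54.1 and 45.3 CPM in cRADΔ/Δ-MLPKO. Dnajb1, the main J-domain partner of the inducible HSP70, had 10.2, 13.9, 11.9, 13.1 and 12.9 CPM in MLPKO and 10.8, 21.5, 13.5, 14.7 and 14.8 CPM in cRADΔ/Δ-MLPKO. Dnajb5 had 71.1, 84.0, 98.0, 86.5 and 99.8 CPM in MLPKO and 76.2, 132, 86.8, 92.6 and 86.7 CPM in cRADΔ/Δ-MLPKO. In all 3, cRADΔ/Δ-MLPKO 2 was far above the rest and the genotypes otherwise overlapped.

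Their log2 fold changes were 0.34, 0.29 and 0.11, with edgeR adjusted p-values of 0.358, 0.322 and 0.699. Without cRADΔ/Δ-MLPKO 2 they were 0.10 for Dnaja1, 0.13 for Dnajb1 and -0.033 for Dnajb5. Genes of the other strand overlap 83.4% of the exon bases of Dnaja1, and 15.0% of its stretches of 100 bases occur also in other genes. Hspa12a, a distant relative of HSP70, had the highest log2 fold change of the 64, 0.47 (95% interval -0.21 to 1.14, edgeR adjusted p = 0.412). It ranged from 11.1 to 25.9 CPM in MLPKO and from 16.8 to 37.2 CPM in cRADΔ/Δ-MLPKO, and without cRADΔ/Δ-MLPKO 2 its log2 fold change was 0.27. Dnajc28, a J-domain protein, was also among the 5 highest, with 0.20 (edgeR adjusted p = 0.580). It ranged from 25.0 CPM in MLPKO 2 to 56.9 CPM in MLPKO and from 42.4 to 57.5 CPM in cRADΔ/Δ-MLPKO, and without MLPKO 2 its log2 fold change was 0.045.

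**Figure D5:**
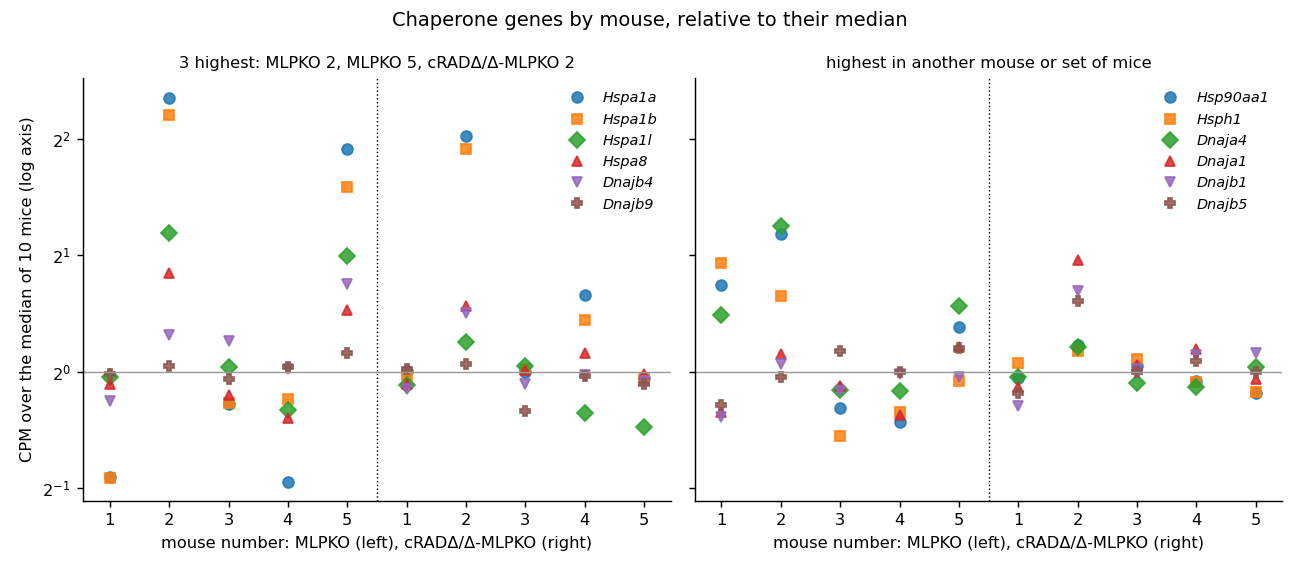
CPM of 12 chaperone genes in each of the 10 mice, divided by the gene's median over the mice (log axis), with MLPKO mice 1 to 5 left of the dotted line and cRADΔ/Δ-MLPKO mice 1 to 5 right of it. In the left panel MLPKO 2, MLPKO 5 and cRADΔ/Δ-MLPKO 2 are the 3 highest for each gene, and in the right panel the genes peak in MLPKO 1 or 2 or in cRADΔ/Δ-MLPKO 2.

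Hsp90ab1, Hspa4 and Hspa4l varied less from mouse to mouse than Hspa8, with a within-group SD on the log2 scale of 0.117, 0.114 and 0.0801 beside 0.417 for Hspa8. Hsp90ab1 had 1741, 1819, 1458, 1440 and 1603 CPM in MLPKO and 1463, 1535, 1523, 1546 and 1380 CPM in cRADΔ/Δ-MLPKO. MLPKO 1, MLPKO 2 and MLPKO 5 were above every cRADΔ/Δ-MLPKO mouse and the other 2 MLPKO mice were within their range, with a log2 fold change of -0.11 (95% interval -0.28 to 0.055, edgeR adjusted p = 0.426). The HSP110 genes Hspa4 and Hspa4l had log2 fold changes of -0.20 (edgeR adjusted p = 0.141) and -0.19 (edgeR adjusted p = 0.0926, DESeq2 adjusted p = 0.0331), with 1 or more mice overlapping. For Hspa4 the ranges were 202 to 244 CPM in MLPKO and 186 to 215 CPM in cRADΔ/Δ-MLPKO, and for Hspa4l they were 78.4 to 91.2 and 73.0 to 80.2 CPM.

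Dnaja2 and Dnajc7, cytosolic partners of HSP70, had log2 fold changes of -0.018 and -0.002, with 95% intervals of -0.21 to 0.18 and -0.12 to 0.12. Dnajb6, which keeps aggregation-prone proteins soluble and is linked to an inherited muscular dystrophy, ranged from 61.9 to 65.0 CPM in MLPKO and from 47.8 to 64.5 CPM in cRADΔ/Δ-MLPKO. Its log2 fold change was -0.19 (95% interval -0.36 to -0.017, edgeR adjusted p = 0.190), and 34.1% of its stretches of 100 bases occur also in other genes. The MLPKO mice lay within a few CPM of each other, and cRADΔ/Δ-MLPKO 3 was the one mouse of the other group that reached them.

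The mitochondrial chaperonin genes Hspe1 and Hspd1 had higher mean counts in cRADΔ/Δ-MLPKO, without a call, while the mitochondrial Hspa9 and Dnaja3 differed little. Hspe1, the HSP10 lid, had 112, 91.6, 84.2, 85.7 and 90.8 CPM in MLPKO and 108, 114, 110, 103 and 98.8 CPM in cRADΔ/Δ-MLPKO. Apart from MLPKO 1, every MLPKO mouse was below every cRADΔ/Δ-MLPKO mouse. The log2 fold change was 0.20 (95% interval 0.028 to 0.37, edgeR adjusted p = 0.167), and without MLPKO 1 it was 0.28 (edgeR adjusted p = 0.0602).

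Hspd1, the HSP60 chamber it closes, had 357, 282, 308, 328 and 321 CPM in MLPKO and 328, 357, 355, 388 and 346 CPM in cRADΔ/Δ-MLPKO. MLPKO 1 was again within the other group, and the log2 fold change was 0.15 (95% interval -0.003 to 0.31, edgeR adjusted p = 0.240). These 2 genes share the promoter region shown above, and 26.9% and 20.4% of the stretches of 100 bases in Hspd1 and Hspe1 occur also in other genes. The ratio of Hspd1 to Hspe1 lay between 3.04 and 3.83 in the 10 mice, with overlap between the genotypes. Hspa9 had a log2 fold change of 0.049 (95% interval -0.075 to 0.17) and stayed between 692 and 795 CPM. Dnaja3, the J-domain partner of Hspa9, had -0.003 (95% interval -0.14 to 0.14), and Dnajc19, of the inner membrane import motor, whose loss causes a cardiomyopathy in people, had 0.13 (95% interval -0.028 to 0.28).

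Chaperones of the endoplasmic reticulum differed little, including the 3 with the unfolded protein response element shown above. Hspa5 had 539, 527, 467, 463 and 628 CPM in MLPKO and 544, 607, 479, 546 and 477 CPM in cRADΔ/Δ-MLPKO, with full overlap and a log2 fold change of 0.015 (95% interval -0.20 to 0.23, edgeR adjusted p = 0.949). Genes of the other strand overlap 44.2% of its exon bases. Hsp90b1 had a log2 fold change of 0.079 (edgeR adjusted p = 0.670) and Dnajc3, a J-domain protein that also curbs the kinase PERK, had 0.15 (edgeR adjusted p = 0.349). Dnajb11 and Dnajc10, which work with Hspa5, had -0.084 and -0.072, with edgeR adjusted p-values of 0.405 and 0.522.

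The genes that work with these chaperones were counted from 5 lists chosen by role. Of 27 cytosolic co-chaperones, 4 heat shock factors, 10 chaperonin partners, 18 genes of endoplasmic reticulum folding and 11 of mitochondrial folding, edgeR called 0 in either direction, with 8 lower and 3 higher of the 70 at an unadjusted p under 0.05, beside 11.5% and 10.1% of all genes. limma-voom called 0 as well, and DESeq2 called 4 lower (Bag3, Cdc37, Smyd1 and P4hb) and 1 higher (Fkbp4) of the 70, beside 5.84% and 3.81% of all genes. The median log2 fold changes were -0.064, -0.026, -0.075, 0.066 and 0.028. Hsf1, the main heat shock factor, had 32.0 CPM in MLPKO and 32.8 CPM in cRADΔ/Δ-MLPKO on average, with a log2 fold change of 0.036 (edgeR adjusted p = 0.808). The smallest edgeR adjusted p-values of the lists belonged to Bag3 (0.0692), a nucleotide exchange factor of HSP70 in muscle, and Smyd1 (0.0698), a methyltransferase that works with HSP90 on myosin, with log2 fold changes of -0.41 and -0.50. These were singled out after their values were seen, and DESeq2 gave adjusted p-values of 0.0114 and 0.0096.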

How the data were processed

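RNA of the apical ventricle of 10 mice was sequenced as 1 library per mouse. Per the labels and the methods, the authors ran FastQC, STAR (to GRCm39) and featureCounts, and deposited raw counts per gene. Tool versions, annotation release and settings for strand, read pairs and shared reads are not given in the sources used here. From 1 to 20 counts, 73.7% to 80.3% of values per library were even.

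The table lists 60676 genes, of which 3491 without values were left out. Names and positions came from GENCODE M39, which holds 56629 of the other 57185. A gene was tested where 6 or more of the 10 mice had over 10 counts and its name was not of the Gm or Rik kind, as in the authors' methods. The 13452 genes were scaled by TMM (factors 0.94 to 1.07) and the genotypes were compared in edgeR 4.0.16 (R 4.3.3) by its quasi-likelihood test, with Benjamini-Hochberg adjustment. Standard errors are the size of the log2 fold change over the square root of F. DESeq2 1.42.0 and limma-voom (limma 3.58.1) were run as alternatives, and the tests were tried on simulated counts. CPM divides counts by the scaled library size, and FPKM divides CPM by the kilobases of exon. Within-group SDs on the log2 scale used CPM plus 0.5. The p-values set the difference between the genotypes against the spread between these mice.

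The text names every chaperone gene without overlap between the genotypes, the 5 with the lowest and the 5 with the highest log2 fold change, and a list by role. Members and lists were chosen with earlier results of these data known. Mouse numbers belong to different animals and were not used as a block. Sequences were read from the GRCm39 genome. Tables and figures were made in Python 3.11.15 with pandas 2.3.3, scipy 1.17.1, numpy 2.4.6 and matplotlib 3.10.9.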

Additional observations from a re-analysis of the deposited data

Results flagged for a closer look

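Each genotype of the 42 named chaperone genes was searched for a mouse that stands apart from the other 4 of its group, by the gap to its nearest neighbour over the whole range of the group (above 0.71 for 5 mice). Of 84 such groups 8 were flagged. Chance flags about 1 in 20 where values are independent and normally distributed. These genes were not independent, and some were named by their own values. The 8 flags are therefore a description only. Of the 8, 5 were cRADΔ/Δ-MLPKO 2, which was the high mouse in each. It had 91.9 CPM of Dnaja1, with the other 4 at 43.2 to 54.1, and 206 CPM of Dnajb4, with the others at 131 to 142. For Hspa1a it had 14.8 CPM beside 3.51 to 5.77, and for Hspa1b 14.6 CPM beside 3.71 to 5.28. For Dnajc7 the gap was small in size, with 51.5 CPM beside 45.7 to 46.9.

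MLPKO 2 stood apart in 2 genes, high for Cct2 with 132.8 CPM beside 108 to 114 and low for Dnaja3 with 127.9 CPM beside 144 to 148. MLPKO 1 stood apart for Hspe1, with 112 CPM beside 84.2 to 91.6 in the other MLPKO mice.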

How the results depend on the processing

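At an adjusted p under 0.05 edgeR called 0 chaperone genes lower and 0 higher, and 0 higher remained the count in all 19 alternatives. The count of genes lower was 5 with DESeq2 (Cct8, Dnajb2, Dnajb12, Dnajc27 and Hspa4l) and 1 (Dnajc18) in the fit with the mouse number as a replicate block. It lay between 0 and 3 with a mouse left out, with the 3 (Cct8, Dnajb2 and Dnajc27) called without MLPKO 4, and it was 0 in the other alternatives: limma-voom, both other size factors, no filter, filterByExpr, Gm and Rik genes kept and robust dispersion. Deviations of same-numbered mice from their group means correlated at 0.0421, 0.0855, 0.1014, 0.2148 and -0.0438 over genes. Mice of different numbers were not correlated, so these values cannot decide whether the numbers pair the mice. The cause of the differences between tools was not tested.

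Of the 42 named genes, 32 kept the sign of their log2 fold change in every alternative. The sign changed for 10, all with adjusted p-values above 0.6 in the edgeR fit. With upper quartile size factors the log2 fold change was 0.006 for Dnaja2, 0.022 for Dnaja3 and 0.022 for Dnajc7, and with filterByExpr it was 0.002 for Dnaja3 and 0.003 for Dnajc7. limma-voom gave 0.221 for Hspa1a and 0.113 for Hspa1b, and the replicate block gave 0.056 for Hspa1a. With a mouse left out the values ranged from -0.051 to 0.006 for Cct7, from -0.081 to 0.040 for Dnaja2, from -0.038 to 0.037 for Dnaja3, from -0.033 to 0.181 for Dnajb5 and from -0.030 to 0.016 for Dnajc7. They ranged from -0.902 to 0.289 for Hspa1a, from -0.844 to 0.319 for Hspa1b, from -0.033 to 0.089 for Hspa5, from -0.193 to 0.141 for Hspa8 and from -0.353 to 0.029 for Hsph1. Depth limits the 9 chaperone genes that were not tested, and reads shared with near-identical copies limit Hspa1a, Hspa1b, Hspa8 and Hsp90aa1 and, with smaller shared shares, Dnajb6, Hspd1, Hspe1 and Dnaja1.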
